A study of Mus musculus with 15 samples.

Results

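Ventricles taken after 7 days of doxycycline from mice with an inducible Celf1 transgene were compared with ventricles of control mice, gene by gene, across the deposited expression table. The comparison rests on 6 of the 15 mice of the series, 3 in each group. All 16042 genes of the table are its members. Of these, 10868 had a mean of at least 1 RPKM (reads per kilobase of gene model and per M mapped reads) over the 15 mice and were tested. The 3 mice labelled 7 days (A3345, A3283 and A3269) were of strain MHCrtTA/TRECUGBP1. They carry the reverse tetracycline trans-activator rtTA behind the heart-specific alpha myosin heavy chain promoter, together with a Flag-tagged human Celf1, LYLQ isoform, behind a tet-inducible promoter. The 3 control mice (A3250, A3259 and A3280) were of strain MHCrtTA, carried rtTA alone and had eaten doxycycline for 72 hours. All were 20 to 22 weeks old, received 2 g/kg doxycycline in food after 2 to 3 hours without food, and gave ventricle tissue without the atria and a small piece of the apex. The controls thus match the 72 hour group in time on doxycycline, and at 7 days the transgene and the longer exposure cannot be told apart. Values are given in the mouse order named here.

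CELF1 is an RNA-binding protein that recognises GU-rich sequence. In the nucleus it steers alternative splicing, and in the cytoplasm it acts on the translation and decay of messenger RNA. Its level falls in the heart after birth, and it is raised in the heart in myotonic dystrophy, where sustained expression in mice is known to lead to a dilated, poorly conducting heart. A table of gene levels does not show splicing, so the values below are changes in RNA amount per gene.

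Celf1 itself stood at 33.8, 36.1 and 33.3 RPKM in the control mice and at 29.5, 30.9 and 37.9 in the mice labelled 7 days. The 2 groups overlapped, with a difference in log2(RPKM + 1) of -0.07 ± 0.20 (moderated standard error, 3 mice against 3, limma adjusted p = 0.771). A two-sided exact permutation test gave p = 0.5, where 3 against 3 cannot go below 0.1. In the other induced groups the gene was far higher. The 12 hour mice read 351, 219.7 and 345 RPKM. The 24 hour mice read 416, 423 and 295, and the 72 hour mice (A3278, A3281 and A3264) 179, 181 and 159. The Celf1 level therefore does not show the induction that the label of the 7 day mice names, and they are called by that label throughout. How the reads of the human transgene were counted under the mouse gene is not given in the sources used here. Myh6, the gene whose promoter drives rtTA, read 9165, 9353 and 8932 RPKM in controls and 915, 1195 and 1185 in the mice labelled 7 days, a difference of -3.07 ± 0.21 (limma adjusted p = 6.2e-09). Whether that fall bears on the transgene was not tested.

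Among the 10868 genes tested, 5960 (54.8%) passed a limma adjusted p of 0.05, of which 2899 were higher (26.7%) and 3061 lower (28.2%) in the mice labelled 7 days. Most genes tested passed, so a gene list is read below against these shares. The median difference over all genes was -0.03, and 1440 calls were more than 2-fold higher and 1519 more than 2-fold lower. For 5854 of the called genes the 3 values of one group lay wholly apart from the 3 of the other. Over all 10868 genes tested, called or not, the 3 values at 7 days lay wholly above in 3516 and wholly below in 3751. Lying apart was thus common in itself. On the first principal component, with 51.8% of the variance, these 3 mice scored 73.5 to 80.8 and the other 12 mice of the series -30.7 to -5.77. RPKM is a share of the reads, so a large rise in some genes lowers the others. In whole-tissue RNA, fewer cells of a type and less RNA per cell cannot be told apart.

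Estimated depth was 19.3 to 52.1 M reads per column for these 6 mice. A3345 and A3283 have 2 columns each, which were averaged. Column names also hold a code, which the labels do not explain. All control columns have the same code, found elsewhere on the 72 hour mouse A3278 alone. No code occurs in both of the groups compared here, so within these 6 mice the codes and the groups cannot be told apart. With the code as a term, in which A3278 alone ties the controls to the other groups, 3171 genes passed, 2102 higher and 1069 lower. Of these, 2664 were called in the same direction without it. Y-linked genes were present in 1 mouse of each group, A3280 at 12.5 RPKM of Ddx3y and A3283 at 30.02 and 38.96 in its 2 columns. The 2 columns of the 72 hour mouse A3264 read 0.1 and 21.8 RPKM, so they go against their shared label, and 72 hour values are also given without it where it matters. Unless said otherwise, differences below are those of log2(RPKM + 1), 7 days minus control, with the moderated standard error for 3 mice against 3. That scale understates the change of low genes.

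**Figure D1:**
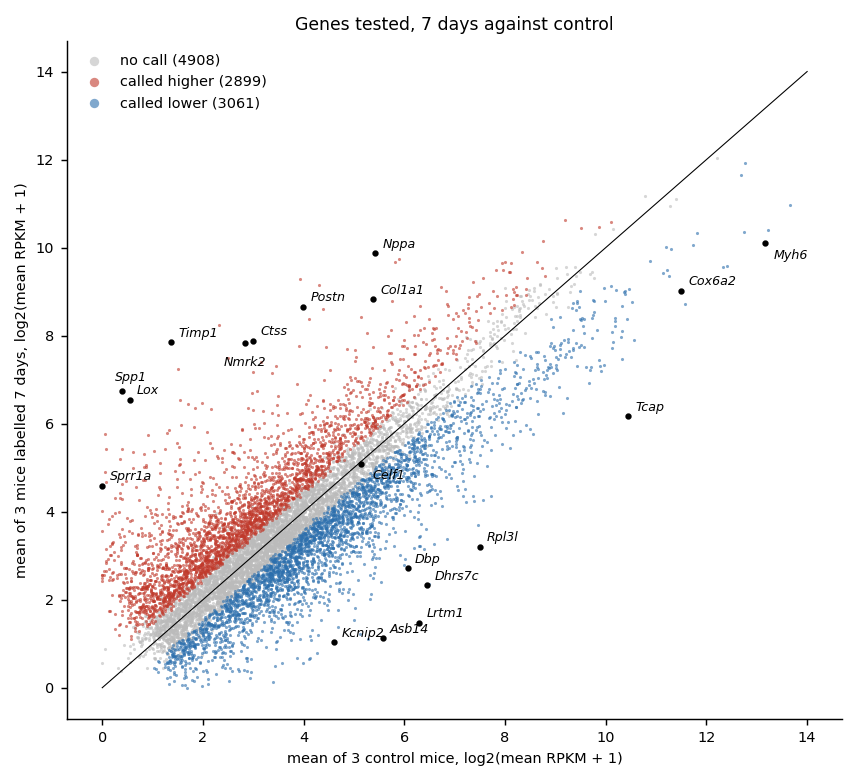
Each point is 1 of the 10868 genes tested, with the mean of the 3 control mice on the x axis and of the 3 mice labelled 7 days on the y axis, both as log2(mean RPKM + 1). The line marks equal means, red points are the 2899 genes called higher and blue points the 3061 called lower. Timp1, Spp1 and Lox stand farthest above the line, and Lrtm1, Asb14 and Rpl3l farthest below it, with Celf1 on it.

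The 3 largest rises were in Timp1, Spp1 and Lox. Timp1, an inhibitor of matrix metalloproteases, read 2.21, 1.13 and 1.42 RPKM in the control mice and 301, 245 and 144 in those labelled 7 days, a rise of 6.44 ± 0.39 (limma adjusted p = 1.2e-09). Spp1, which encodes the secreted adhesion protein osteopontin, went from 0.17, 0.62 and 0.13 RPKM to 153, 79.8 and 83.1, a rise of 6.30 ± 0.27. Lox, the enzyme that cross-links collagen, went from 0.26, 0.45 and 0.66 to 113, 96.7 and 67.6 RPKM, a rise of 5.98 ± 0.22. The lowest of the 3 hearts labelled 7 days stood far above the highest control heart for each of these genes. The chemokines Ccl6 (5.90) and Ccl9 (4.77), the lectin Lgals3 (5.71), the lysosomal protease Ctss (4.89), Arg1 (5.10) and the myeloid receptor Clec4d (4.82) followed. Chil3, a lectin of alternatively activated macrophages, rose by 5.68 ± 0.18, and its exons overlap those of the near copy Chi3l4 on the same strand, so reads may be shared between them. Serpina3n (5.38) and Serpina3m (4.73) belong to another family of near copies.

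Nmrk2, a nicotinamide riboside kinase of muscle, rose from 5.34, 6.51 and 6.52 RPKM to 286, 197 and 198, by 4.98 ± 0.46. Sprr1a, a small proline-rich protein, was listed at 0 in the 3 control mice and at 29.3, 15.6 and 24.6 RPKM in the mice labelled 7 days. Tnc (4.84) and Postn (4.72), matrix proteins of healing tissue, Lcn2 (4.94), the metallothionein Mt2 (4.72), Adam8 (5.03) and S100a4 (4.96) complete the 20 largest rises, all at 4.55 or more. Of these 20 genes, 8 averaged under 1 RPKM in the 12 mice outside the 7 day group and so passed the limit on low values only through their 7 day values. At 72 hours the same genes lay between -0.24 and 1.39 against the same controls, with none called.

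The 20 largest falls ran from -4.89 to -3.33. Lrtm1, a leucine-rich repeat membrane protein, fell from 75.7, 74.5 and 83 RPKM to 2.62, 2.12 and 0.64, by -4.89 ± 0.23 (limma adjusted p = 6.7e-11). Rpl3l, the muscle form of a large-subunit ribosomal protein, fell from 175, 194 and 170.4 to 8.97, 10.1 and 5.63 RPKM, a difference of -4.32 ± 0.21. Tcap, the Z-disc protein telethonin that anchors titin, went from 1344, 1397 and 1431 to 76.2, 76.9 and 59.5 RPKM, a difference of -4.28 ± 0.27. All 3 controls were above all 3 mice labelled 7 days for each of them. The ubiquitin ligase subunits Asb14 (-4.48) and Asb15 (-3.33), the membrane protein Yipf7 (-4.22), the ephrin Efnb3 (-4.17) and Dhrs7c (-4.13), a dehydrogenase of the sarcoplasmic reticulum, were in the same range. So were the myosin Myh7b (-3.92), Kcnip2 (-3.58), the clock output factor Dbp (-3.56), the lipid droplet protein Fitm1 (-3.51) and Fn3k (-3.50). Zcchc10 (-3.50), Lrrc15 (-3.48), Ces1d (-3.45), Magix (-3.45), Cryba4 (-3.45) and Rtn2 (-3.41) were also among the 20 largest falls, of which 12 had already passed at 72 hours at sizes up to -1.05. Dbp had also been low at 12 hours, as given below with the clock genes.

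Short motifs were counted upstream of the genes that rose and fell most. Windows of 250 bases before RefSeq starts (GRCm38.p6) were searched on both strands for 5 motifs, and matches of different motifs may overlap. AP-1 (TGANTCA) stood in 10.9% of the windows of genes more than 4-fold higher, 4.4% of those more than 4-fold lower, 4.61% of those of all tested genes and 6.75% of all windows. MEF2 (CTA and TAG with 4 bases of any kind between them), a motif of muscle promoters, stood in 1.6%, 6.4%, 2.91% and 3.2% of them, and in 6 of 22 sarcomere genes. The shares in these 4 sets were 0.639%, 0.8%, 0.269% and 0.387% for ERR (TCAAGGTCA), 3.83%, 8.8%, 8.43% and 6.02% for the E-box (CACGTG), and 49.8%, 57.2%, 61.3% and 45.8% for NF-kB (GGG and CC with 5 bases of any kind between them). These are descriptions of letters with no test, and a gene can have several windows. Sprr1a and Ccl9 are shown as rises with AP-1 letters, and Mybpc3 and Ttn as sarcomere genes with MEF2 letters, 5′ to 3′ on the strand of the gene, with the matches in capitals. The 4 were picked after the matches were seen.
Sprr1a, chr3:92485882-92486131, minus strand: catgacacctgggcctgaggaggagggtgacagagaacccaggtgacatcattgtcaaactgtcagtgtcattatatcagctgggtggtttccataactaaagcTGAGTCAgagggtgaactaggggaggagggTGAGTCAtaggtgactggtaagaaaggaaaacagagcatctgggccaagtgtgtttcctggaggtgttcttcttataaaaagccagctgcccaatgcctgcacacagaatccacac
Ccl9, chr11:83578637-83578886, minus strand: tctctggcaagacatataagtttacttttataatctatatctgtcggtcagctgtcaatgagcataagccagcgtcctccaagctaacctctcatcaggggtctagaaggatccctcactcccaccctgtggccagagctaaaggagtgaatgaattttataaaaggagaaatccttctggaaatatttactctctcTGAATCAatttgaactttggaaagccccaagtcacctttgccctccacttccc
Mybpc3, chr2:91117894-91118143, plus strand: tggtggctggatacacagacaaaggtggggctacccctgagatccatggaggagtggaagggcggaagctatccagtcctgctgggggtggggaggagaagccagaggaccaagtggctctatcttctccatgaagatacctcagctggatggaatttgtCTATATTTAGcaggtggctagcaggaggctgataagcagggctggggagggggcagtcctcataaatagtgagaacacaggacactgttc
Ttn, chr2:76982548-76982797, minus strand: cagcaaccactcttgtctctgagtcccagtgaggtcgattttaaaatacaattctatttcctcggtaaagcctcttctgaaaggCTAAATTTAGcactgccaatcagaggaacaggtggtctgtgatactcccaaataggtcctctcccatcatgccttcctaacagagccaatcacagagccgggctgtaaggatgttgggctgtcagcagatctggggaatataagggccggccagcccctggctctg
Sprr1a has 2 matches, which begin 146 and 116 bases before the start. The others have 1 each, at 53 bases for Ccl9, 90 for Mybpc3 and 166 for Ttn.

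Genes of hypertrophy and stretch rose, while the RPKM listed for the fetal myosin Myh7 did not. Of 23 tested members of that list, 16 were higher and 2 lower (Myh7 and Gata4), with a median of 0.87. Nppa, the atrial natriuretic peptide, read 36.3, 49.4 and 40.1 RPKM in controls and 1233, 575 and 1012 in the mice labelled 7 days, a rise of 4.39 ± 0.37 (limma adjusted p = 4.6e-08). Nppb, its ventricular relative, went from 118, 79.7 and 119.7 to 543, 429.9 and 667 RPKM, by 2.36 ± 0.35. Both peptides are released by stretched muscle, and neither had passed at 72 hours, at -0.29 and 1.02. Fhl1, a LIM protein of the stretch response, rose by 2.36 ± 0.18 after a difference of -0.92 ± 0.18 at 72 hours. Xirp2 (1.54), Uchl1 (1.87) and Ankrd1 (0.99, 0.78 and adjusted p = 0.0608 without control A3250) were also higher. Myh7, the beta myosin heavy chain that dominates before birth, fell from 2932, 3214 and 2959 to 372, 457 and 434 RPKM, by -2.85 ± 0.20. Its reads may be shared with its near copy Myh6, which changed by -3.07. How far the Myh7 values come from Myh6 reads was not tested. Skeletal actin Acta1 did not pass, at -0.02 ± 0.28 with overlapping groups (limma adjusted p = 0.96). Gata4 stood at -0.76 and lost its call in several alternatives.

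Sarcomere genes were mostly lower, but by very different amounts. Of 27 tested, 19 were lower and 3 higher (Flnc, Des and Nexn), with a median of -1.01, next to -0.56 at 72 hours. In the thick filament 6 of 7 fell, among them Myl2 (-2.85), Myl3 (-2.89) and Mybpc3 (-2.23). Myl3, the essential light chain of the ventricle, went from 4771, 5383 and 6100.4 to 803, 1046 and 456 RPKM. In the thin filament 7 of 8 fell, from Tnni3, the inhibitory troponin, at -2.77 to Tnnc1 at -1.50, Tnnt2 at -1.03 and Actc1 at -0.86. Tpm1, the tropomyosin that winds along the same filament, read 4522, 4831 and 4773 RPKM in controls and 4486, 4794 and 3363 in the mice labelled 7 days, and did not pass at -0.18 ± 0.24. Titin, encoded by Ttn, changed by -1.27 ± 0.23 and Ldb3 of the Z disc by -2.29 ± 0.24, next to -1.01 for Myom1 and -0.90 for Csrp3. Actn2 (-0.47, limma adjusted p = 0.0736) and Myom2 (-0.43, 0.0698) did not pass. The crosslinker Flnc rose by 1.08 ± 0.19, Nexn stood at 0.70 with its call lost in several alternatives, and Des rose by 0.59 ± 0.23, whose call was lost without any one of 5 of the 6 mice. After quantile normalization Tnnt2 (0.55), Actc1 (0.68) and Tpm1 (1.38) were called higher, as was the small heat shock protein Cryab (1.08), which stood at -0.34 on the deposited scale.

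Summed RPKM of 9 cardiomyocyte markers was 44532 to 46456 in controls and 12161 to 13217 in the mice labelled 7 days, and 6 of these markers are also sarcomere members. As a share of all summed RPKM they held 9.71% to 10.3% and 3.55% to 3.96%. Their part in the falls of other muscle genes was not tested. Of the 9, 7 fell, Ryr2 did not pass (0.37) and Nppa rose.

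Calcium handling was uneven. Of 18 tested, 10 were lower and 3 higher, with a median of -0.63, next to -0.44 at 72 hours. Hrc, the calcium-binding protein of the sarcoplasmic reticulum, went from 577, 598 and 527 to 68.8, 101 and 56.2 RPKM, a difference of -2.94 ± 0.20 (limma adjusted p = 4.5e-09). Phospholamban, encoded by Pln, changed by -1.74 ± 0.23, junctophilin Jph2 by -1.47 ± 0.27 and calsequestrin Casq2 by -0.68 ± 0.19. Sarcolipin, Sln, stood at -2.52, a call lost without A3269 (-1.76, limma adjusted p = 0.0753), and the channel subunit Cacna1c at -0.91. The exporters of the plasma membrane rose, the sodium-calcium exchanger Slc8a1 by 1.21 ± 0.20 and the pump Atp2b1 by 0.96 ± 0.15, along with Sri (0.75). The release channel Ryr2 did not pass, at 0.37 ± 0.22.

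Ion channel genes were lower as a group, with 20 of 25 tested lower and 1 higher (Gjc1, 0.64), and a median of -1.41. The list median at 72 hours was -0.65. Potassium channels made up most of the lower calls, with 15 of 16 lower. Kcnip2, the subunit that the fast transient outward current depends on, read 24.4, 21.1 and 24.3 RPKM in controls and 0.78, 1.51 and 0.85 in the mice labelled 7 days, a difference of -3.58 ± 0.19 (limma adjusted p = 2.4e-10). Its pore-forming partner Kcnd2 changed by -1.54 ± 0.21. Kcnv2 (-2.49), the G-protein-gated Kcnj3 (-2.15) and the ATP-sensitive Kcnj11 (-1.95) fell as well, while Kcnj5 stood at -0.27 and did not pass. Hcn2 of the pacemaker current changed by -1.90 ± 0.21 and the sodium channel subunit Scn4b by -1.66 ± 0.18. Gja1, the main ventricular gap junction protein, did not pass, at -0.34. With the column code as a term 12 of the 25 were lower.

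Cardiac transcription factors had no member higher and 12 of 20 lower, with a median of -0.77, next to -0.50 at 72 hours. The cofactor Hopx changed by -2.13 ± 0.37 and the muscle methyltransferase Smyd1 by -2.08 ± 0.22. Nkx2-5 read 37.8, 55 and 60.9 RPKM and then 22.6, 21.9 and 11.3, a difference of -1.45 ± 0.42 (limma adjusted p = 0.00761), Hand2 stood at -1.21 and Srf at -0.77, both calls lost without A3269 (-0.64 and -0.56, limma adjusted p = 0.0762 and 0.115). Tbx20 did not pass, at -0.11. With the column code as a term only 1 of the 20 was lower. At 12 hours (A3258, A3252 and A3276) Nkx2-5 read 19.75, 7.02 and 17.3 RPKM and Hand2 21.1, 14.2 and 16.4. Srf then read 25.5, 25.3 and 26.5, whereas Hopx (148, 110 and 118) and Smyd1 (97.3, 147 and 102) stood above all their 7 day values. At 72 hours A3278, which has the code of the controls, read 49.2 RPKM of Nkx2-5. A3281 and A3264 read 17.5 and 22.3.

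Genes of fuel oxidation fell nearly throughout. Of 34 fatty acid oxidation genes 30 were lower and 4 higher, of 18 ketone and branched-chain amino acid genes 17 were lower and none higher, and of 23 genes of pyruvate entry and the citric acid cycle all 23 were lower. Their medians were -1.49, -1.84 and -1.51, against -0.03 for all genes and 28.2% called lower. At 72 hours the 3 medians were -0.50, -0.37 and -0.29. Cpt2, the inner carnitine transferase, went from 132, 147 and 149 to 27.7, 24.7 and 22.8 RPKM, a difference of -2.47 ± 0.17 (limma adjusted p = 6.2e-09). Eci1 (-2.50), Acadm (-2.43) and the fatty acid binding protein Fabp3 (-2.42) were close to it. Idh2, which oxidises isocitrate in mitochondria, went from 925, 984 and 959.6 to 150.5, 169 and 116 RPKM, by -2.73 ± 0.21. The smallest falls among the citric acid cycle genes named here were in Sucla2 (-0.82) and Dld (-0.67). Ivd, of leucine breakdown, changed by -2.58 ± 0.17 and Oxct1, which lets tissue burn ketone bodies, by -2.13 ± 0.17. Pdk2, a kinase that shuts pyruvate dehydrogenase, changed by -2.41 ± 0.19.

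Of the 4 genes in the fat list that were higher, Angptl4, a secreted inhibitor of lipoprotein lipase, rose by 2.88 ± 0.44, the fatty acid transporter Cd36 by 1.04 ± 0.25, the liver form Cpt1a by 0.81 ± 0.17 and Pdk4 by 1.08 ± 0.40, the last with overlapping groups. Ppara and Esrra, nuclear receptors of fat oxidation genes, changed by -1.58 ± 0.26 and -1.61 ± 0.23. Their part in the falls or rises of the list was not tested. Cd36 and Pdk4 did not pass with the column code as a term (0.07 and 0.23, limma adjusted p = 0.877 and 0.776) or after GC correction (0.24 and 0.83, limma adjusted p = 0.193 and 0.0877). Pdk4 also lost its call without any one of 3 of the 6 mice.

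Respiratory chain genes were lower in 66 of 72 tested, with a median of -1.59, next to -0.34 at 72 hours. By complex, 31 of 34 genes of complex I, 4 of 4 of complex II, 6 of 7 of complex III, 10 of 12 of complex IV and 15 of 15 of the ATP synthase were lower. Cyc1, cytochrome c1, went from 645, 668 and 748 to 177, 166 and 132 RPKM, a difference of -2.12 ± 0.20 (limma adjusted p = 2.3e-07). Cox6a2 (-2.49) and Cox7a1 (-2.38), the heart forms of cytochrome oxidase subunits, Atp5e (-2.41), Ndufb11 (-2.27) and Sdhc (-2.15) fell by more than 4-fold. Ndufv2 did not pass, at -0.35. Uqcrb was the 1 gene called higher, at 0.93, a call lost in several alternatives and at -0.58 with the column code. With that term 50 of the 72 were lower, and all 23 citric acid cycle genes still were.

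Glucose use was mixed, with 14 of 26 genes lower and 6 higher and a median of -0.72, next to -0.435 at 72 hours. Eno3, the muscle enolase, fell from 778, 793 and 858 to 138, 121 and 104 RPKM, by -2.74 ± 0.20 (limma adjusted p = 1.1e-08). The muscle phosphorylase Pygm changed by -2.66 ± 0.18, the heart lactate dehydrogenase subunit Ldhb by -2.07 ± 0.20, its counterpart Ldha by -0.69 ± 0.20 and the insulin-regulated transporter Slc2a4 by -1.81 ± 0.19. Pfkp (1.69) and Hk1 (0.88), forms found in many tissues, rose. Gapdh, often used as a reference, did not pass at -0.31 and was called higher, at 1.18, after quantile normalization.

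**Figure D2:**
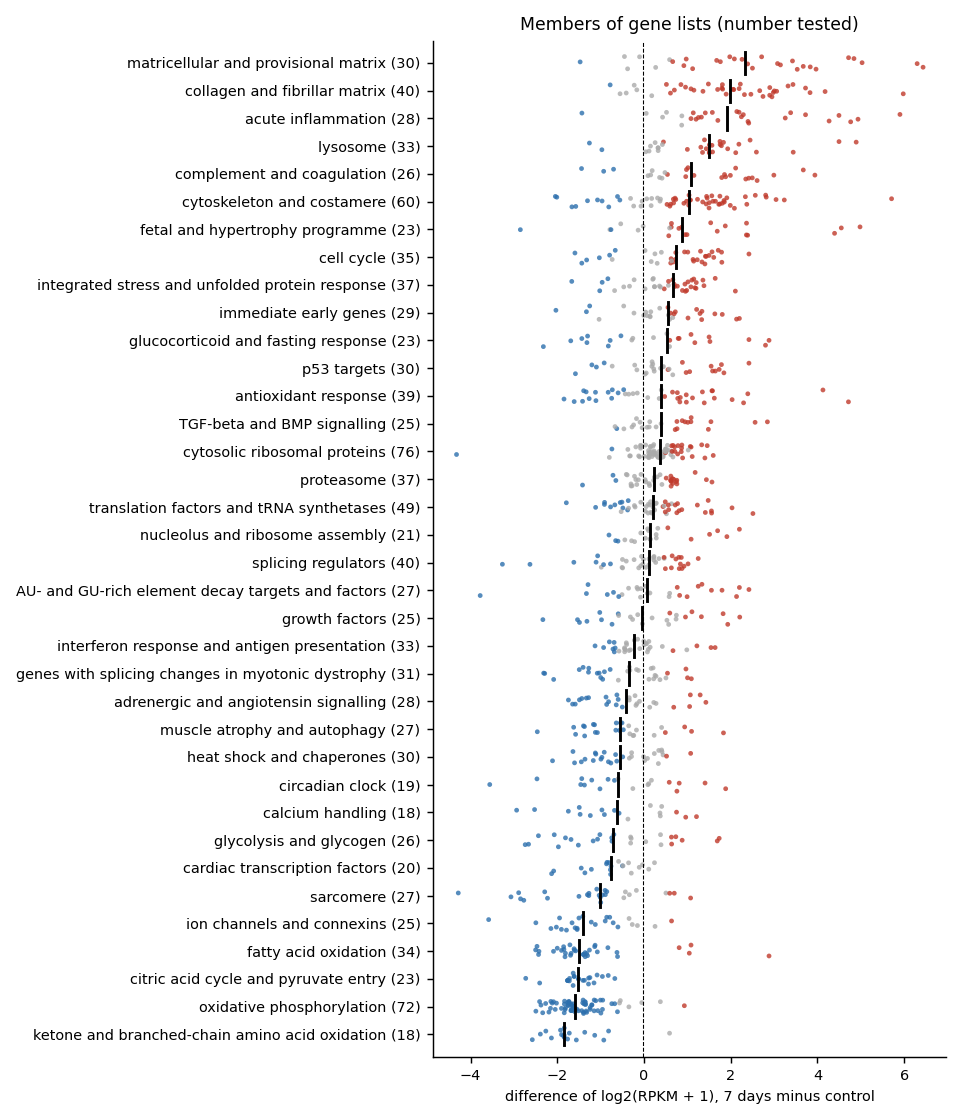
Each row is a gene list, with the number tested in brackets, and each point a member placed by its difference in log2(RPKM + 1), 7 days minus control. Red points were called higher, blue lower and grey not called, the bar is the median of the list, and the dashed line is the median of all genes tested, -0.03. Matrix lists have medians of 1.97 and 2.33 at the top, and the oxidation lists lie between -1.84 and -1.49 at the bottom.

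In pairs of related genes the form typical of striated muscle lost ground to the form of other tissues. The 10 pairs were chosen after the values were seen, and in all 10 the muscle gene held a smaller share of the pair's RPKM in each mouse labelled 7 days than in any control. Rpl3l made up 59.8% to 61.9% of the Rpl3l and Rpl3 sum in controls and 1.77% to 2.88% in the mice labelled 7 days. Rpl3 rose from 108, 130.5 and 109.9 to 409.7, 341 and 312 RPKM, by 1.597 (limma adjusted p = 4.8e-06). Both encode the same position of the large ribosomal subunit. The elongation factor Eef1a2 held 64.2% to 68.3% and then 16.5% to 19.2%, with Eef1a2 at -1.79 ± 0.18 and Eef1a1 at 1.41 ± 0.17. Phosphofructokinase Pfkm held 94.2% to 95.9% and then 48.9% to 55.6%, at -2.43 ± 0.17 for Pfkm. Tuba4a and Tuba1a moved by -1.57 and 1.84, although Tuba4a stood at 0.008 with the column code as a term.

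In the other pairs the 2 members moved by unequal amounts. Cpt1b changed by -1.71 ± 0.17 while Cpt1a rose, Hk2 changed by -0.74 ± 0.17 while Hk1 rose, and Pygb stood at -0.74 beside -2.66 for Pygm. Cox7a2 stood at -1.40 beside -2.38 for Cox7a1. Cox6a1 (0.38) and Slc2a1 (0.04) did not pass, against falls in Cox6a2 and Slc2a4. Reads of such pairs can be split between near copies, and other cells of the heart express the second form of most pairs, so the share is of the tissue and not of a cell type.

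**Figure D3:**
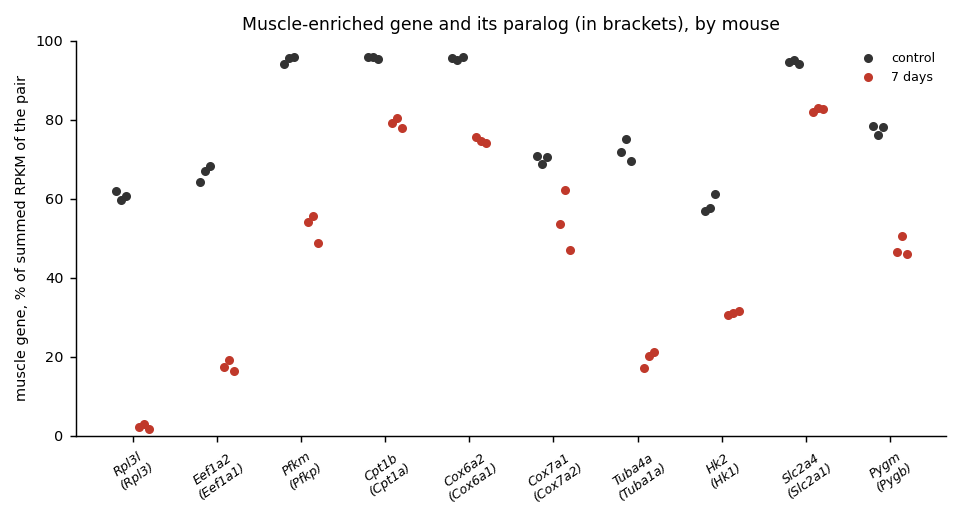
For 10 pairs the y axis gives the RPKM of the muscle form as a percent of the summed RPKM of the pair, with 1 point per mouse, black for the 3 controls and red for the 3 mice labelled 7 days. The red points lie below the black in every pair, from 59.8% or more to 2.88% or less for Rpl3l.

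Matrix genes rose together. Of 40 tested genes of collagens and fibrils 34 were higher and 1 lower (P4ha2, -0.78), with a median of 1.97, and all 7 fibrillar collagens were higher. Col3a1 read 64.9, 59.4 and 50 RPKM in controls and 826, 653 and 1079 in the mice labelled 7 days, a rise of 3.83 ± 0.31 (limma adjusted p = 3.2e-08). Col1a1 rose by 3.44 ± 0.33, Col1a2 by 3.01 ± 0.28 and Col5a2 by 4.18 ± 0.21. Fbn1 (3.73), the microfibril protein, and the proteoglycan Vcan (2.90) were among the rises. The collagen chaperone Serpinh1 did not pass, at -0.41.

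Of 30 tested matricellular genes, proteases and inhibitors 24 were higher and 1 lower (Vtn, -1.47), with a median of 2.33. Postn, a protein of activated fibroblasts, went from 20.2, 15.2 and 9.4 to 397, 363 and 446 RPKM. Fn1 rose by 3.15 ± 0.23, Cthrc1 by 3.67 ± 0.26, and the proteases Mmp3 and Mmp14 by 3.97 ± 0.25 and 2.71 ± 0.19. Sparcl1 did not pass, at -0.10. Among 25 genes of TGF-beta and BMP signalling 12 were higher and 1 lower (Smad3, -0.63, a call lost in several alternatives). The ligand Tgfb2 rose by 2.56 ± 0.22, the receptor Tgfbr1 by 1.54 ± 0.26 and the secreted Fstl1 by 2.85 ± 0.29. Of the tested members, 3 in the collagen list and 7 in the matricellular list averaged under 1 RPKM in the other 12 mice and so passed the limit on low values only through their 7 day values. At 72 hours the medians of the 2 matrix lists were -0.09 and -0.06 against the same controls.

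Fibroblast markers summed to 1117 to 1317 RPKM in controls and 2271 to 2861 in the mice labelled 7 days, with 6 of 9 higher. The receptor Pdgfra rose by 1.79 ± 0.20, Tcf21 did not pass (0.05) and Gsn changed by -1.43 ± 0.23. Markers of activated fibroblasts summed to 74.5 to 111 and 556 to 633 RPKM, with 6 of 7 higher, and 2 of the 7 were above the limit on low values only through their 7 day values. Of the 9 fibroblast markers 5 are also in the collagen list, and their part in its rise was not tested.

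**Figure D4:**
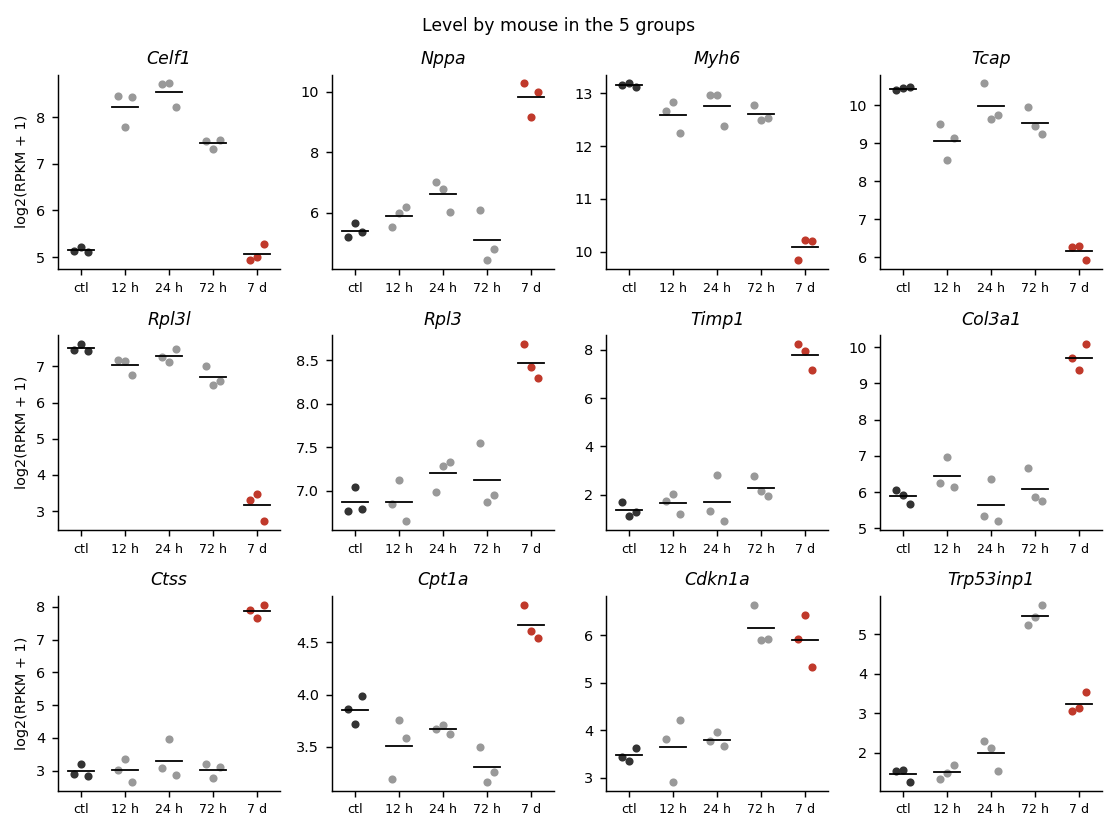
Level of 12 genes as log2(RPKM + 1) in every mouse of the 5 groups, with black points for controls, grey for 12, 24 and 72 hours and red for 7 days, and a bar at the group mean. Celf1 is high from 12 to 72 hours and at the control level at 7 days, whereas Nppa, Timp1, Col3a1 and Ctss stand high at 7 days and Myh6, Tcap and Rpl3l low.

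Macrophage markers rose nearly throughout. Of 26 listed markers of macrophages 25 were tested, and these 25 were higher, with a median of 2.84. Cx3cr1 was under the limit. It read 0.36, 0.65 and 0.52 RPKM in controls and 0.28, 0.425 and 1.63 in the mice labelled 7 days. Summed RPKM of all 26 was 190 to 233 in controls and 1994 to 2742 in the mice labelled 7 days. Of the 25, 6 passed the limit on low values only through their 7 day values, as the other 12 mice averaged under 1 RPKM, and such genes had to differ. Lyz2, the myeloid lysozyme, read 49.5, 59.6 and 57.9 RPKM and then 910.2, 671 and 857, a rise of 3.84 ± 0.22 (limma adjusted p = 6.3e-10). Cd68 rose by 3.44 ± 0.25, the growth factor receptor Csf1r by 2.12 ± 0.24, Adgre1, which encodes the F4/80 antigen, by 2.45 ± 0.26, and the mannose receptor Mrc1 by 4.15 ± 0.17. C1qa rose by 1.99 ± 0.28, and Gpnmb, of lipid-laden macrophages, went from 0.53, 0.53 and 0.54 to 42.8, 13.6 and 64 RPKM.

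Marker lists of other blood cells moved less evenly. Neutrophil markers summed to 1.09 to 2.89 RPKM in controls and 26.3 to 39.7 in the mice labelled 7 days, with S100a8 at 3.06. Of the 11 listed, 6 were under the limit. Among them Ltf read 0.03, 0.05 and 0.09 RPKM and then 0.04, 0.08 and 0.15. Ngp and Camp read 0 in controls and at most 0.41 and 0.16 at 7 days. Retnlg, Cxcr2 and Mmp8 lay above all controls at low values. Of the T and NK cell markers only Cd3e (3.18) was above the limit, and Cd3d, Cd3g and Cd8a were under it. Cd3d read 0, 0.24 and 0 RPKM in controls and 0, 0.11 and 0 in the mice labelled 7 days. Lck read 0.4, 0.24 and 0.13 and then 0.11, 0.13 and 0.31, whereas Il7r went from 0.24, 0.11 and 0.12 to 2.86, 1.425 and 3.97. The list thus did not move together. Cd3e and 3 of the 4 neutrophil markers tested were above the limit only through their 7 day values, and so had to differ. The platelet marker sum rose from at most 15.3 RPKM to at least 88.8, with Pf4 at 3.79. Pf4 made up most of it, at a mean of 9.99 RPKM in controls and 158 at 7 days. Ppbp (1.81) passed with overlapping groups. Under the limit, Gp9 read 0.38, 0.42 and 0.27 RPKM and then 0.745, 0.05 and 0. Itga2b and Treml1, also under it, lay above all controls at low values. Erythroid markers went the other way, with Hbb-b1 at -3.06, from sums of at least 817 RPKM to at most 307. The hearts were washed free of blood, and how much blood each held is not given. Endothelial markers had no member higher and 6 of 12 lower, with Tie1 at -1.01, Kdr at -0.84 and Pecam1 at 0.17, which did not pass. With the column code as a term none of the 12 passed.

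**Figure D5:**
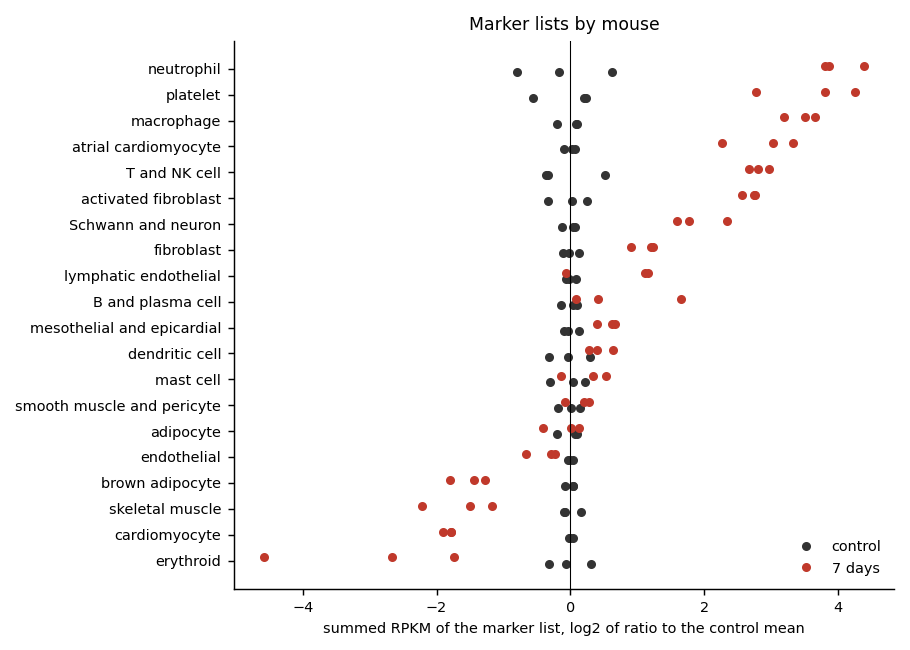
Summed RPKM of each marker list in each of the 6 mice, as the log2 of its ratio to the control mean, black for controls and red for mice labelled 7 days. Macrophage, neutrophil and activated fibroblast lists lie to the right, and cardiomyocyte and erythroid lists to the left, with no overlap between the groups in these.

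Most inflammation genes tested rose, and few interferon genes did. Of 28 tested genes of acute inflammation 22 were higher and 1 lower (the chemokine Cxcl12, -1.43), with a median of 1.92. Another 11 of the 39 listed were under the limit on low values. Also under that limit, Tnf read 0.07, 0.15 and 0.4 RPKM in controls and 0.45, 0.45 and 0.31 in the mice labelled 7 days. Ccl5 read 0.22, 0.97 and 0 and then 0.415, 0.145 and 0, whereas Ccl3 went from 0.22, 0 and 0 to 6.615, 2.91 and 0.51. Ccl2, which draws monocytes into tissue, read 1.1, 0.85 and 1.19 RPKM in controls and 12.8, 12.7 and 15.8 in the 72 hour mice, then 40.3, 58.5 and 23.8 in the mice labelled 7 days. The differences from control were 2.85 ± 0.30 and 4.27 ± 0.30, both calls, and its 7 day value was higher than its 72 hour value (limma adjusted p = 0.00104). Saa3, an acute phase protein, followed the same course at 2.23 and 4.50, and the receptor antagonist Il1rn rose by 2.40 ± 0.25 at 7 days. Of 33 interferon and antigen presentation genes 4 were higher, 7 lower and 22 not called, with a median of -0.22. The 4 were Irf8 (1.55), Ifit2 (0.67) and the class II genes H2-Aa (1.64) and H2-Ab1 (1.22), of which the last 2 overlap each other on opposite strands. With the column code as a term 11 of the 33 were higher and none lower.

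Complement and lysosome genes rose as well. Of 26 complement and coagulation genes 17 were higher and 3 lower (Cfd, F3 and Thbd). C3ar1, the receptor of a complement fragment, went from 1.45, 1.19 and 0.96 to 30.6, 25.2 and 45.1 RPKM, by 3.94 ± 0.24, and Cfd, complement factor D, stood at -1.44. Of 33 lysosome genes 23 were higher and 2 lower (Gaa and Npc1), with a median of 1.51. Ctss went from 6.5, 8.25 and 6.11 to 239.5, 201 and 265 RPKM. In the inflammation, complement and lysosome lists 3, 1 and 2 of the tested members were above the limit on low values only through their 7 day values. The sum of macrophage markers moved with these genes, and its part in their rise was not tested.

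Several p53 targets were high at 72 hours and less high at 7 days. Of 30 tested, 11 were higher and 4 lower at 7 days, with a median of 0.40, next to 1.03 at 72 hours. The controls are the same in both. The difference between the 2 times does not use them, but its test shares their spread. Trp53inp1, a stress protein of that pathway, read 1.9, 1.96 and 1.39 RPKM in controls, 36.2, 52.2 and 42.2 at 72 hours and 7.29, 7.79 and 10.6 at 7 days. It differed from control by 4.01 ± 0.21 and then by 1.79 ± 0.21, and between the times by -2.22 ± 0.21 (limma adjusted p = 3.6e-07). Mdm2, which marks p53 for breakdown, went from 2.33 to 0.42, where it did not pass (limma adjusted p = 0.0701). Gtse1 went from 4.46 to 1.73, the death receptor Eda2r from 3.24 to 1.05 and the stress hormone Gdf15 from 2.55 to 1.08, and each of these 4 genes passed between the times. The 7 day call of Gdf15 was lost without control A3259 (0.95, limma adjusted p = 0.0564). Cdkn1a, which halts the cell cycle, stood at 2.68 ± 0.30 and 2.42 ± 0.30, with a difference between times of -0.26 ± 0.30 (limma adjusted p = 0.502). Sesn1 (-1.20), Ccng1 (-0.92), Gadd45a (-1.58) and Tigar (-1.10) were the 4 lower than control at 7 days.

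Protein folding in the endoplasmic reticulum and in the cytosol went apart. Of 37 genes of the integrated stress and unfolded protein response 21 were higher and 4 lower (Atf5, Shmt2, Vldlr and Herpud1), and of its 18 folding genes 13 were higher. Edem1, which sends misfolded proteins to breakdown, rose by 2.11 ± 0.15, Pdia3 by 1.64 ± 0.17 and Atf4 by 0.77 ± 0.18, while Herpud1 changed by -1.67 ± 0.19. Of 30 cytosolic heat shock genes 16 were lower and 2 higher (Dnajb4 and Tcp1). Hsph1 went from 26.4, 34.5 and 27.3 to 6.28, 7.68 and 4.41 RPKM, a difference of -2.11 ± 0.19 (limma adjusted p = 8.7e-08), and the small heat shock protein Hspb6 changed by -1.64 ± 0.27. With the column code as a term 4 of the 30 were lower.

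Antioxidant genes split, with 19 of 39 higher and 13 lower. Hmox1, which breaks down heme, read 8.67, 8.19 and 7 RPKM in controls, 50.9, 40.2 and 36.5 at 72 hours and 179.6, 237 and 87.3 at 7 days, at 4.13 ± 0.31 for the latter. Proteasome subunits were higher in 15 of 37 and lower in 3 (Psme1, Psme2 and Psmg1), with Psmd14 at 1.57 and the activator Psme1 at -1.42, and in 4 and 1 with the column code as a term. Of 27 genes of muscle atrophy and autophagy 16 were lower and 4 higher. Pink1, which tags damaged mitochondria, changed by -2.46 ± 0.26. The muscle ubiquitin ligase Trim63 stood at -0.51, a call lost in several alternatives, and Fbxo32 did not pass at -0.17.

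Cell division genes were higher, from low levels. Of 35 tested, 22 were higher and 6 lower, with a median of 0.73, and 9 of the 12 replication genes were higher and none lower. Of the 35, 5 averaged under 1 RPKM in the 12 mice outside the 7 day group. With a mean of at least 5 RPKM as the limit 13 were left, 3 higher and 6 lower. Top2a, which untangles replicated DNA, went from 0.86, 0.44 and 1.16 to 3.88, 3.02 and 4.82 RPKM, by 1.43 ± 0.22 (limma adjusted p = 4.4e-05). Ccnb2 rose by 1.80 ± 0.32. The more abundant Ccnd2 and Cdkn1b fell, by -1.32 ± 0.23 and -0.79 ± 0.21. In which cells of the ventricle these genes were read was not tested.

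Translation genes moved less. Of 76 cytosolic ribosomal protein genes 19 were higher, 2 lower (Rpl3l among them) and 55 not called, a share of higher calls near that of all genes, 26.7%. After quantile normalization 48 were higher and after GC correction 40. Rps27a rose by 1.40 ± 0.17. Of 49 translation factors and tRNA synthetases 17 were higher and 11 lower, among them the initiation factors Eif1a, at 2.51 ± 0.27, and Eif5, at 2.03 ± 0.25. Of 21 nucleolar genes 6 were higher and 3 lower, with the ribosome chaperone Npm1 at 1.51.

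Splicing regulators included some of the larger falls outside the sarcomere. Of 40 tested, 13 were higher and 7 lower, with a median of 0.11. Rbfox1, a regulator of muscle and nerve exons, read 11.8, 13.9 and 15.3 RPKM in controls and 0.65, 1.12 and 0 in the mice labelled 7 days, a difference of -3.27 ± 0.26 (limma adjusted p = 2.4e-08). Rbm38 and Rbm24, a related pair of RNA-binding proteins, changed by -2.63 ± 0.28 and -1.07 ± 0.21. Celf2, the closest relative of Celf1, went from 12.7, 12.4 and 13.7 to 19.7, 21.1 and 30.3 RPKM, at 0.80 ± 0.22, and did not pass after GC correction (0.30, limma adjusted p = 0.222) or with the column code as a term (0.65, 0.175). The muscleblind genes, whose proteins oppose CELF1 on shared exons, did not pass, Mbnl1 at 0.22 and Mbnl2 at 0.11, and read -0.55 each as lower calls after that correction. Hnrnpd, which binds AU-rich messages, rose by 1.25 ± 0.22, and Srsf1 stood at -1.11, with its call lost in several alternatives. Among 27 factors and targets of AU- and GU-rich decay 10 were higher and 6 lower, and of 31 genes known for changed splicing in myotonic dystrophy 4 were higher (Mtmr1, Bin1, Pdlim3 and App) and 13 lower, on their summed transcripts.

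Of 60 tested genes of the cytoskeleton and its anchors outside the sarcomere 40 were higher and 10 lower, with a median of 1.04. By role, 26 of 29 actin and crosslinker genes were higher and 1 lower, 8 of 11 tubulins were higher and 3 lower, and 6 of 20 genes of the dystrophin complex and integrins were higher and 6 lower. The marker sums of fibroblasts and macrophages, given above, moved with this list, and their part in it was not tested. S100a6 (3.24) and Anxa1 (3.05), calcium-dependent membrane proteins, the tubulin Tubb3 (2.81), the nonmuscle actinin Actn1 (2.09) and Vim (1.46), the filament protein of mesenchymal cells, were among them. Itgb1, a matrix receptor, rose by 1.59 ± 0.18, and Sgca of the dystrophin complex fell from 97.7, 118 and 121 to 31.4, 27.6 and 21 RPKM, by -2.04 ± 0.18 (limma adjusted p = 1.1e-07).

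Members of the hormone and growth factor lists moved in both directions. Of 28 adrenergic, angiotensin and endothelin genes 14 were lower and 5 higher (Gnaq, Rgs2, Ace, Ednrb and Edn1). The receptors Adrb1, Adra1b and Agtr1a changed by -1.74 ± 0.37, -1.65 ± 0.25 and -1.28 ± 0.17, and the cyclase Adcy5 by -1.49 ± 0.22. Ace, which makes angiotensin, rose by 1.43 ± 0.22 and the peptide Edn1 by 1.30 ± 0.24. With the column code as a term 3 of the 28 were lower and 3 higher. Of 25 growth factors 7 were higher and 8 lower, shares near those of all genes, 26.7% and 28.2%. Among them Hbegf stood at 2.21 ± 0.21, Igf1 at 1.93 ± 0.30 and Vegfb at -2.33 ± 0.22.

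Of 19 clock genes tested, 9 were lower and 5 higher (Arntl, Clock, Bhlhe40, Nfil3 and Wee1), the latter a share near that of all genes, 26.7%. Of 4 activators 2 were higher and 1 lower, of 10 repressors 1 was higher and 5 lower, and of 5 output genes 2 were higher and 3 lower. Dbp read 70.5, 64.4 and 63.6 RPKM in controls and 6.18, 8.84 and 1.62 in the mice labelled 7 days. It had read 5.6, 4.66 and 5.46 at 12 hours (A3258, A3252 and A3276) and 49.2, 27.2 and 30 at 72 hours (A3278, A3281 and A3264). Hlf, a relative of Dbp, changed by -2.47 ± 0.25 and the repressor Nr1d2 by -1.46 ± 0.22 at 7 days. Arntl, the activator that drives them, rose by 1.88 ± 0.20 (limma adjusted p = 7.8e-07). The hour at which each heart was taken is not given in the sources used here, so hour and group cannot be told apart.

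Immediate early genes, which cells switch on within minutes of a stimulus, were higher in 13 of 29 tested and lower in 3 (Jun, Klf2 and Ier5), with a median of 0.56. Among the AP-1 subunits, whose motif is shown above, Fos (2.13), Fosb (1.81), Fosl1 (1.29), Junb (1.34) and Fosl2 (0.72, with overlapping groups) were higher and Jun (-1.33) was lower, while Jund (-1.04) and Atf3 (0.56) did not pass. Of 23 genes of the glucocorticoid and fasting response 10 were higher and 8 lower, with a median of 0.53. Fkbp5, a chaperone of the glucocorticoid receptor and one of its targets, was higher by 2.80, whereas Klf15, another target, was lower at -2.32. The lipid droplet proteins Plin2 and Plin5 stood at 1.52 and -1.69, and the lipase Lpl at -1.43. The genes of these 2 lists were chosen for the text after their values were seen.

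Between 7 days and 72 hours 4879 genes passed (44.9%), 2452 higher (22.6%) and 2427 lower (22.3%) at 7 days. The controls do not enter this difference but share in the estimate of spread behind its p-values. A fit of these 2 groups alone gave 4057 calls. Without the 72 hour mouse A3264 the fit of all groups gave 4324, with 2006 higher and 2318 lower. Among genes called in both contrasts Spp1, Lox, Chil3, Lgals3 and Timp1 had the largest differences upward, at 6.02, 5.70, 5.69, 5.55 and 5.50. Lrtm1, Rpl3l, Dhrs7c, Efnb3 and Asb14 had the largest downward, at -3.98, -3.52, -3.48, -3.45 and -3.43. In this contrast 3 codes hold mice of both times. Within all 3 the difference had the same sign for 4715 of the 4879 genes. In a set of 237 genes named here, 194 were called, and 190 of these had the same sign. This is a description only, since these are the columns that gave the calls and 3 mice have columns under 2 of the codes.

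Some named genes share exons with an annotated neighbour. In a set of 237 genes named here, exons overlap a gene on the opposite strand for 21 and on the same strand for 3 (Chil3, Cpt1b and Tnni3). Other genes in the text are not in that count, and whether the counting used strand is not given. Counts of near copies may also be split, as for Myh6 and Myh7, Lyz2, Hbb-b1 and the ribosomal protein genes. Among the larger values with an overlapping neighbour are Myh7b with Trpc4ap, Dbp with Sphk2, Fabp3 with Zcchc17, Cox6a2 with Itgad, Fn1 with Apol7d and Csf1r with Hmgxb3, whose values are uncertain to that extent. In the mm9 build Timp1 lies at chrX:20447292-20451861 on the plus strand, Rpl3l at chr17:24864774-24873094 on the plus strand and Nppa at chr4:147374831-147376188 on the plus strand. The values are for whole gene models.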

How the data were processed

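Polyadenylated RNA of ventricles was sequenced as paired ends, per the labels' protocols. The authors deposited 1 table of RPKM values, per gene and column, for 16042 genes and 20 columns of 15 mice. Per the submitters' processing notes the tools were TopHat and Bowtie and the genome build was mm9. The sources used here give neither tool versions nor how reads were counted per gene and strand. Groups and mice come from the labels, and repeat columns of a mouse were averaged. Depth was estimated from the steps between low values of 135 single-exon genes, and 40 of 40 simulated columns were recovered within 5%. A gene of 1 kilobase at 1 RPKM then has about 16.4 to 52.1 reads, the depth in M of a column.

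Values became log2(RPKM + 1), and the 10868 genes whose mean over 15 mice reached 1 RPKM entered the test. Of these, 296 averaged under 1 in the 12 mice outside the 7 day group, and 254 of them were called higher. limma 3.58.1 (R 4.3.3, lmFit, contrasts.fit, eBayes with trend) was fitted to 15 mice in 5 groups, with 10 residual and 7.12 prior degrees of freedom and Benjamini-Hochberg adjustment over all genes at 0.05. P-values measure the spread between these mice. On simulated data for the 7 day comparison (10868 genes) 5, 39, 50 and 50 of 50 genes changed by 0.5, 1, 2 and 4 were recovered, with 9 false calls. There 10668 genes were left unchanged, noise was independent between genes and codes had no effect. In the data 54.8% of genes passed, so these counts do not give the recovery or false calls of the real comparison.

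Symbols are those of RefSeq, matched by Entrez number for 15988 genes. The 36 gene lists hold 1211 genes, of which 1116 were tested, 65 were under the limit and 30 were not analysed here. Members, lists and markers were chosen with earlier results of these data known, and lists have no test. Named genes are the 20 largest rises and 20 largest falls that passed without overlap, up to 6 called and 4 uncalled members of each list and marker list, 12 reference genes, and the 5 largest differences in each direction between 7 days and 72 hours. Of these the text gives those that describe a group, and a few are not reported here. Genes outside that rule are the partners in the 10 pairs and those named because a count was 5 or less or a direction turned. Promoter windows are those of RefSeq (GRCm38.p6), and 17 of the 20 largest rises and 13 of the 20 largest falls had one. Alternatives were a pseudocount of 0.1, no limit, a limit of 5, quantile normalization, scaling by median ratios, a robust prior, a fit of the 2 groups alone, a GC correction (lowess, span 0.3), only the first of repeat columns, leaving out each mouse, and a fit over 16 columns that adds their code and treats columns of 1 mouse as correlated (0.283). Leaving out A3264 and a term for Y-linked genes were added after the data were seen.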

Additional observations from a re-analysis of the deposited data

Results flagged for a closer look

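In 35 genes the difference from control had passed the test at 72 hours and at 7 days in opposite directions. The controls are shared, and choosing genes in this way fixes a difference between the 2 times, so that difference is given as a description. The 8 of them that are named here differed between 7 days and 72 hours by 1.36 for Cpt1a, 3.28 for Fhl1, 1.52 for Rgs2, 1.71 for Slc7a5, -2.86 for Mreg, -1.11 for Trim63, -1.93 for Fbxw7 and 1.68 for Pdlim3 (log2(RPKM + 1), 7 days minus 72 hours). Fhl1 read 79, 88.9 and 68.6 RPKM in controls, 43.9, 39.9 and 39.4 at 72 hours and 423, 405 and 396 at 7 days. Slc7a5, an amino acid transporter, stood at -1.004 and then 0.70, the ubiquitin ligase subunit Fbxw7 at 1.36 and then -0.57, and Mreg at 1.78 and then -1.08. Pdlim3 stood at -0.71 and 0.97, Rgs2 at -0.84 and 0.69. Rgs2, Slc7a5, Fbxw7, Mreg and Pdlim3 were named after their values were seen. The 7 day calls of Slc7a5, Fbxw7 and Trim63 were lost without 1 or more of the mice. Outliers were not looked for, since every group has 3 mice.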

How the results depend on the processing

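The 5960 calls became 3171 with the column code as a term and lay between 4277 and 6780 in every other alternative run. GC correction gave 6054 calls, of which 4746 were shared in the same direction, and GC content and the 7 day difference had a Spearman rho of -0.372 across genes, which are not independent replicates. The calls in each direction moved by over 1.5 times only with the column code as a term, with 1069 lower, and at a limit of 5 RPKM, with 1821 higher of fewer genes tested. Leaving out 1 of the 6 mice compared gave 4962 to 5567 calls, and leaving out A3264 gave 5831. Celf1 lay at 0.001 after quantile normalization. For a set of 237 genes named here, 215 were called. Of these, 190 kept call and direction in every alternative other than the column code, which took the call or turned the sign of 49. Other genes in the text, such as Fos, Fkbp5, Gjc1 and Sri, are outside these counts. Signs turned with the code for Gata4 (0.40), Nexn (-0.44), Sln (0.55), Srf (0.42), Uqcrb (-0.58), Cfd (0.13), Srsf1 (0.33) and Tuba4a (0.008), and without a call in either fit for Tpm1 (0.25), Cryab (0.44) and Gapdh (0.28). They turned after quantile normalization for Tnnt2 (0.55), Actc1 (0.68), Tpm1 (1.38), Cryab (1.08) and Gapdh (1.18), and after GC correction for Nexn (-0.032), Mbnl1 (-0.55), Mbnl2 (-0.55) and, uncalled, Gapdh (0.06). The cause was not tested. No paired analysis was possible because the mouse numbers differ between groups. Genes near 1 RPKM rest on few reads in the shallower columns.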
